A study of Drosophila melanogaster with 12 samples.

Results

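The mRNAs bound to polysomes were compared between aramis RNAi and UAS-tkv ovaries of Drosophila melanogaster. The libraries were chosen by their labels as every polysome library of these genotypes, which gave 4 of the 12 libraries of the series. Germline expression was driven by NosGAL4 in all genotypes. The aramis RNAi flies (UAS-Dcr-2, NosGAL4 > aramis RNAi) carried the Dicer transgene that strengthens RNAi, and gave 2 polysome libraries. The UAS-tkv flies (NosGAL4 > UAS-tkv) overexpressed thickveins, a type I BMP receptor, carried no Dcr-2 transgene, and also gave 2 polysome libraries. The Dcr-2 transgene therefore cannot be told apart from the knockdown in this comparison. The bam RNAi flies (UAS-Dcr-2, NosGAL4 > bam RNAi) share the Dcr-2 transgene with aramis RNAi, and their 2 polysome libraries are given beside some results. Ovaries were dissected from 1 to 3 days after eclosion, from flies fattened on yeast. The driver acts in germ cells, so somatic cells of the ovary carry the transgenes but were not the target. The labels do not say whether the replicates are separate crosses, and every p-value measures only the spread between these samples, which may be technical.

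Polysomes are mRNAs with several ribosomes on them, and they are parted from free mRNA by sedimentation through a sucrose gradient. The mRNAs recovered from the polysome fractions are those a tissue is loading with ribosomes, and each library is a sample of this pool. aramis (ais) encodes a DEAD-box RNA helicase needed to make ribosomes in the female germline. BMP signalling keeps germ cells undifferentiated, and tkv overexpression is used to gather germline stem cells. The mRNAs of ribosomal proteins are known as a group whose loading on polysomes is set together, by TOR kinase and the RNA-binding protein Larp. The comparison asks which mRNAs make up the polysome pool when aramis is lowered, against ovaries that overexpress tkv. The UAS-tkv polysomes also held mRNAs of late egg chambers, with chorion genes at 0.669% and 0.913% of counts, against 0.0171% and 0.00636% in bam RNAi polysomes.

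The aramis RNAi polysome libraries held 12954029 and 3131667 counts, against 11545494 and 5086998 in UAS-tkv polysomes. The replicate libraries were correlated over genes (log2-scaled counts, Pearson's r) at 0.937 in aramis RNAi polysomes and 0.873 in UAS-tkv polysomes, and genes are not independent replicates. Both pools held germline mRNAs such as rhi and bgcn and somatic mRNAs such as Fas3 and eya, so the defining mRNAs of ovarian germline and soma were present. The UAS-tkv polysome replicates stood apart from each other in some gene groups. Midgut peptidase mRNAs took 0.00110% of counts in UAS-tkv replicate 1 and 0.224% in replicate 2. Vitelline membrane and early eggshell mRNAs took 1.69% in UAS-tkv replicate 1 and 0.375% in replicate 2. Calls in these groups are given with each library left out. Yolk protein and yolk receptor mRNAs also stood apart, at 0.759% in UAS-tkv replicate 1 and 0.213% in replicate 2.

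A large part of the polysome pool differed between the genotypes. Of 9745 genes tested, 1674 were higher (17.2%) and 1324 were lower (13.6%) in aramis RNAi polysomes than in UAS-tkv polysomes at an adjusted p under 0.05, or 30.8% in either direction (edgeR quasi-likelihood test, Benjamini-Hochberg adjustment). The median log2 fold change over all genes was 0.02, and 755 higher and 389 lower genes were over 4-fold. The 2 libraries of each genotype did not overlap for 65.7% of the genes tested. Leaving out 1 library gave 645 higher and 423 lower genes without aramis RNAi replicate 1, and 1276 higher and 665 lower without aramis RNAi replicate 2. It gave 1063 higher and 926 lower genes without UAS-tkv replicate 1, and 1494 higher and 1073 lower without UAS-tkv replicate 2. A total of 932 of the 2998 called genes passed with each of the 4 libraries left out, 595 of them higher and 337 lower. In the reserved lysates, called input, 989 genes were higher (10.1%) and 851 were lower (8.73%) between the same genotypes, or 18.9% of genes tested (53.8% of the calls higher, against 20.7% with library totals alone). Between bam RNAi and UAS-tkv polysomes 61 genes were called (0.626%), 41 higher (0.421%) and 20 lower (0.205%). Between aramis RNAi and bam RNAi polysomes 1237 were called (12.7%), 568 higher (5.83%) and 669 lower (6.87%). These comparisons share libraries. In whole ovaries, fewer cells of a type and less RNA per cell cannot be told apart, and this holds for every result that follows.

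The pools were about equally spread over genes. The 10 most abundant genes took 11.1% and 13.9% of counts in aramis RNAi polysomes, against 8.76% and 9.61% in UAS-tkv polysomes. The most abundant 405 and 306 genes held 50% of the counts in aramis RNAi polysomes, against 314 and 290 genes in UAS-tkv polysomes. In TPM, counts per base of exon scaled to the same total in every library, CG43134 was the most abundant mRNA of both pools, with 135814 and 197500.0 TPM in aramis RNAi polysomes and 54932 and 124617 TPM in UAS-tkv polysomes. This short gene of no named function lies on chromosome X at 4247313 to 4247785 (dm6 build), and the test did not pass (log2 fold change 0.78, adjusted p = 0.429, edgeR).

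What followed CG43134 differed between the pools. The other 9 most abundant mRNAs of aramis RNAi polysomes were CG7443, CG18628, CG13299, the actins Act57B and Act42A, the metallothionein MtnA, CG6770, the cofilin tsr and the myosin light chain Mlc2. In UAS-tkv polysomes they included the vitelline membrane protein Vm34Ca, CG7443, CG18628 and the ribosomal protein genes RpLP2, RpL41, RpS27A and RpL8. CG13299, on 3L at 6231805 to 6232361, had 17509 and 16721 TPM in aramis RNAi polysomes, against 2119 and 3473 TPM in UAS-tkv polysomes. Both aramis RNAi libraries were higher, and the gene was called (log2 fold change 2.49, adjusted p = 0.00633), though not without UAS-tkv replicate 1 (adjusted p = 0.0567). RpLP2, an acidic protein of the ribosomal stalk, had 1395 and 2709 TPM in aramis RNAi polysomes, against 9278 and 8106 TPM in UAS-tkv polysomes. These values did not overlap either, and RpLP2 was not called (log2 fold change -2.12, adjusted p = 0.0998).

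**Figure D1:**
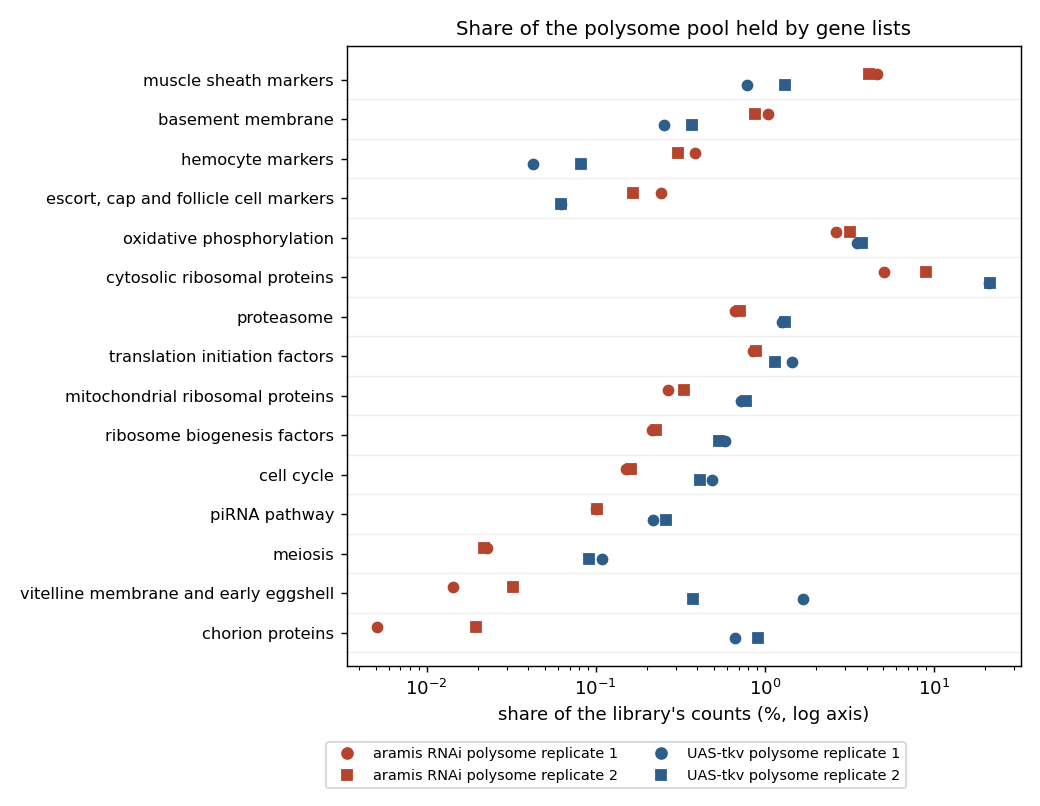
Share of each polysome library's counts held by 15 gene lists (log axis), with aramis RNAi libraries in red above UAS-tkv libraries in blue and circles and squares for replicates 1 and 2. Cytosolic ribosomal proteins took 5.07% and 9.0% in aramis RNAi polysomes and 21.2% and 21.5% in UAS-tkv polysomes, while muscle sheath, basement membrane, hemocyte and somatic gonad lists lay to the right in aramis RNAi.

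Cytosolic ribosomal protein mRNAs, which encode the proteins of the ribosome itself, took a smaller share of the polysome pool in aramis RNAi. They held 5.07% and 9.0% of counts in aramis RNAi polysomes, against 21.2% and 21.5% in UAS-tkv polysomes. The groups did not overlap, and an exact permutation test of 2 against 2 libraries cannot give a two-sided p below 0.333. In input the shares were closer, at 18.6% and 18.2% in aramis RNAi and 20.4% and 19.4% in UAS-tkv, and also did not overlap. The bam RNAi polysomes were far apart from each other, at 33.2% and 9.34%, so one of them lay just above the higher aramis RNAi library. The widest 95% Wilson interval of a list's share in the 4 libraries reached 0.0357 percentage points either side, an error of counting alone, as reads had no molecular tags.

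Gene by gene, all 79 tested ribosomal protein genes had a log2 fold change below 0 in polysomes, with a median of -1.48, against a median of 0.02 over all genes. They ran from -3.66 (RpS5b) to -0.53 (RpS15Ab), and 66 of them lay between -1 and -2. For 78 of the 79 genes both aramis RNAi libraries were below both UAS-tkv libraries, against 31.8% of all genes tested. Their input median was 0.34 with the TMM scaling used throughout and -0.10 with library totals alone, so its sign turned with the scaling, and 3 of them were called lower in input under both. Library totals moved the median of all genes in input by -0.44, and the ribosomal protein median lay 0.38 above that of all genes in either case. Only 5 passed the test in polysomes, a smaller share than the 13.6% of all genes, with adjusted p-values whose median was 0.0970. The bam RNAi polysome libraries, which enter the estimate of the spread, differed from each other in these genes, and without them 71 of the 79 were called lower. The 4 polysome libraries alone gave 48 and DESeq2 gave 53. With 1 aramis RNAi or UAS-tkv library left out the count was 2 to 4 and the median was -2.01 to -1.18, with 78 or 79 genes below 0.

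**Figure D2:**
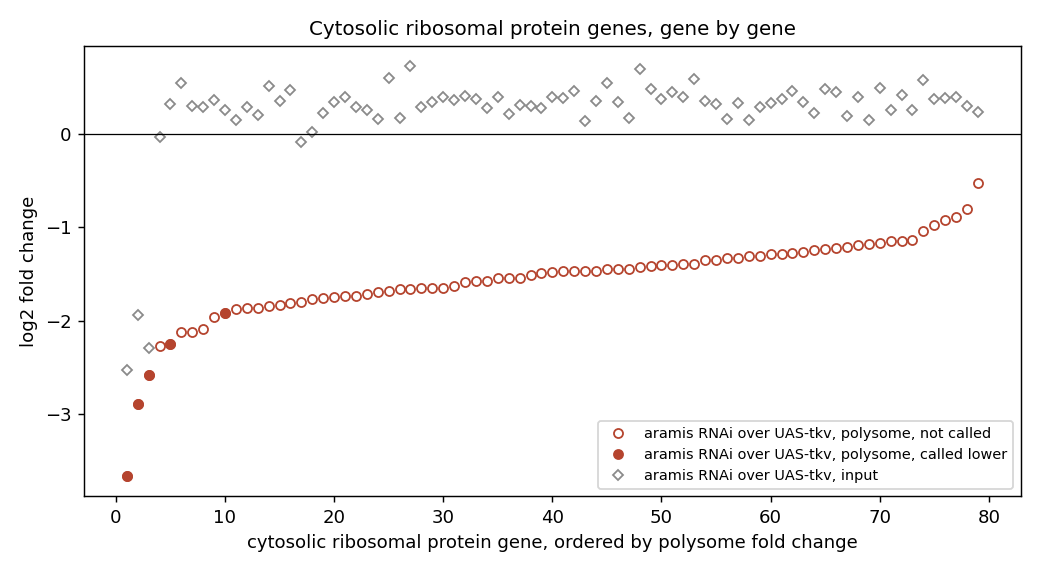
Log2 fold change of aramis RNAi over UAS-tkv for the 79 tested cytosolic ribosomal protein genes, ordered by the polysome value, with polysome in red (filled where called lower) and input as grey diamonds. The polysome values run from -3.66 to -0.53 with a median of -1.48, and the input values, scaled by TMM, have a median of 0.34 (-0.10 with library totals alone) with 3 genes far below the others.

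The 5 called genes were RpS5b, RpS10a, RpS19b, RpL39 and RpS9. The first 3 are germline-enriched paralogs of broadly used ribosomal proteins, and they were also the 3 genes called lower in input. RpS19b, on 3R at 23932729 to 23933530, had 44.0 and 58.1 CPM (counts scaled by the effective library size) in aramis RNAi polysomes, against 251 and 356 CPM in UAS-tkv polysomes. It was lower in both libraries and kept the call with any library left out (log2 fold change -2.58 ± 0.31 SE, adjusted p = 0.000602). RpS5b, on 3R at 14900432 to 14901563, had 120 and 170 CPM in aramis RNAi polysomes, against 2238 and 1428 CPM in UAS-tkv polysomes (log2 fold change -3.66, adjusted p = 0.00365), and its groups were far apart. In input the log2 fold changes of RpS5b and RpS19b were -2.53 and -2.29, against -3.66 and -2.58 in polysomes, and neither difference between the fractions passed the test (adjusted p = 0.720 and 0.873, edgeR).

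RpL39 and RpS9 fell by 2.25 and 1.92 on the log2 scale in polysomes, beside input values of 0.33 and 0.25 that did not pass and turned to -0.11 and -0.19 with library totals alone, with polysome adjusted p-values of 0.0408 and 0.0465. They were named after their values were seen, to complete the 5, and both calls were lost with any single library left out (adjusted p up to 0.227 and 0.247). RpS10a lost its call without aramis RNAi replicate 1 (adjusted p = 0.0619). RpL8, a protein of the large subunit, had 1091 and 2102 CPM in aramis RNAi polysomes, against 6286 and 6142 CPM in UAS-tkv polysomes. The gap of RpL8 is wider than either pair, and the test did not pass (log2 fold change -1.96, adjusted p = 0.0812). RpS14b gave -2.27 (adjusted p = 0.0528), but it has a near-identical tandem copy and how the counting split reads between copies was not stated.

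Whether a gene's polysome difference exceeded its input difference was tested as the interaction of fraction and genotype. It was called for 1 gene of 9745 (0.0103%), scaf, with 535 genes higher and 197 lower at an unadjusted p under 0.05, and no gene was called lower by edgeR or by DESeq2. All 79 ribosomal protein genes had a polysome minus input difference below 0, with a median of -1.82 on the log2 scale, against 0.05 over all genes. With library totals alone 78 of the 79 were below 0, with a median of -1.47 against 0.40 over all genes, and scaf was not called (lowest adjusted p of any gene 0.0893). Of the 79, 21 had an unadjusted p under 0.05 and none passed the adjustment (lowest adjusted p = 0.652, edgeR). The direction was not particular to these genes. With TMM scaling the difference was below 0 for 70 of 74 oxidative phosphorylation genes (median -0.87) and 68 of 70 mitochondrial ribosomal protein genes (median -0.73). It was below 0 for 30 of 38 initiation factors (median -0.39) and for 4658 of all 9745 genes. Polysome RNA was taken with acid phenol-chloroform and input RNA with TRIzol, so the fractions differ in extraction too.

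Mitochondrial ribosomal proteins, which translate the mitochondrial genome, were called lower in 45 of 70 genes and higher in none, with a median log2 fold change of -1.21. Their share of the pool was 0.267% and 0.331% in aramis RNAi polysomes, against 0.722% and 0.778% in UAS-tkv polysomes. In input only 2 were called lower (median -0.48). The count depended on the libraries, at 6 and 21 without aramis RNAi replicate 1 and 2, and 34 and 20 without UAS-tkv replicate 1 and 2. mRpL39, on 3L at 14997981 to 14999666, had 56.0 and 54.5 CPM in aramis RNAi polysomes, against 184 and 172 CPM in UAS-tkv polysomes. Its replicates were close to each other in both groups (log2 fold change -1.69 ± 0.31 SE, adjusted p = 0.00291), and the input value of -0.64 did not pass (adjusted p = 0.173). mRpL47 was at 29.5 and 29.4 CPM in aramis RNAi polysomes, against 106 and 128 CPM in UAS-tkv polysomes (adjusted p = 0.00325).

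Ribosome biogenesis factors, which build ribosomes in the nucleolus together with helicases such as aramis, were called lower in 18 of 29 genes and higher in none. Their median was -1.04 in polysomes and also -1.04 in input, where 14 were called lower. With a library left out the polysome count was 6 and 10 without aramis RNAi replicate 1 and 2, and 15 and 14 without UAS-tkv replicate 1 and 2. Nop56, a core protein of the box C/D particles that methylate rRNA, had 147 and 184 CPM in aramis RNAi polysomes, against 619 and 543 CPM in UAS-tkv polysomes. NHP2, a protein of the H/ACA particles that make pseudouridine in rRNA, had 83.0 and 114.6 CPM in aramis RNAi polysomes, against 454 and 571 CPM in UAS-tkv polysomes. Both kept their calls with any library left out, with log2 fold changes of -1.81 for Nop56 (adjusted p = 0.00143) and -2.38 for NHP2 (adjusted p = 0.00138).

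Translation initiation factors had a median log2 fold change of -0.78. Their median exon length was 1777 bases, and 18.4% of all genes over 1000 and up to 2000 bases were called lower. In the list 9 of 38 were called lower (23.7%, beside 13.6% of all genes) and 2 higher (5.26%, beside 17.2%). These counts fell to 1 and 2 lower without aramis RNAi replicate 1 and 2, and to 3 and 5 lower without UAS-tkv replicate 1 and 2, and none was higher without aramis RNAi replicate 1 or UAS-tkv replicate 1. eIF4E3, a cap-binding protein paralog, was at 2.64 and 4.95 CPM in aramis RNAi polysomes, against 26.1 and 39.1 CPM in UAS-tkv polysomes (log2 fold change -3.16, adjusted p = 0.00108), and was the one called member that held with any library left out. The helicase eIF4A, which unwinds mRNA leaders, had 1435 and 1491 CPM in aramis RNAi polysomes, against 1618 and 1216 CPM in UAS-tkv polysomes, and the groups overlapped. Elongation factors had 3 of 6 called lower (0 without aramis RNAi replicate 1, and 1 without either UAS-tkv library), and eEF2, which moves the ribosome along, overlapped between the groups. Aminoacyl-tRNA synthetases, which charge tRNAs, had 12 of 31 called lower and none higher (median -0.80), with 0 and 4 lower without aramis RNAi replicate 1 and 2 and 5 without UAS-tkv replicate 1. Proteasome subunits, which degrade proteins, had 14 of 37 called lower and none higher (median -0.83), with 1 and 4 lower without aramis RNAi replicate 1 and 2, and 8 and 4 without UAS-tkv replicate 1 and 2. Oxidative phosphorylation genes had 1 of 74 called lower and none higher by edgeR, with a median of -0.29 (5 lower and 0 higher by DESeq2).

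**Figure D3:**
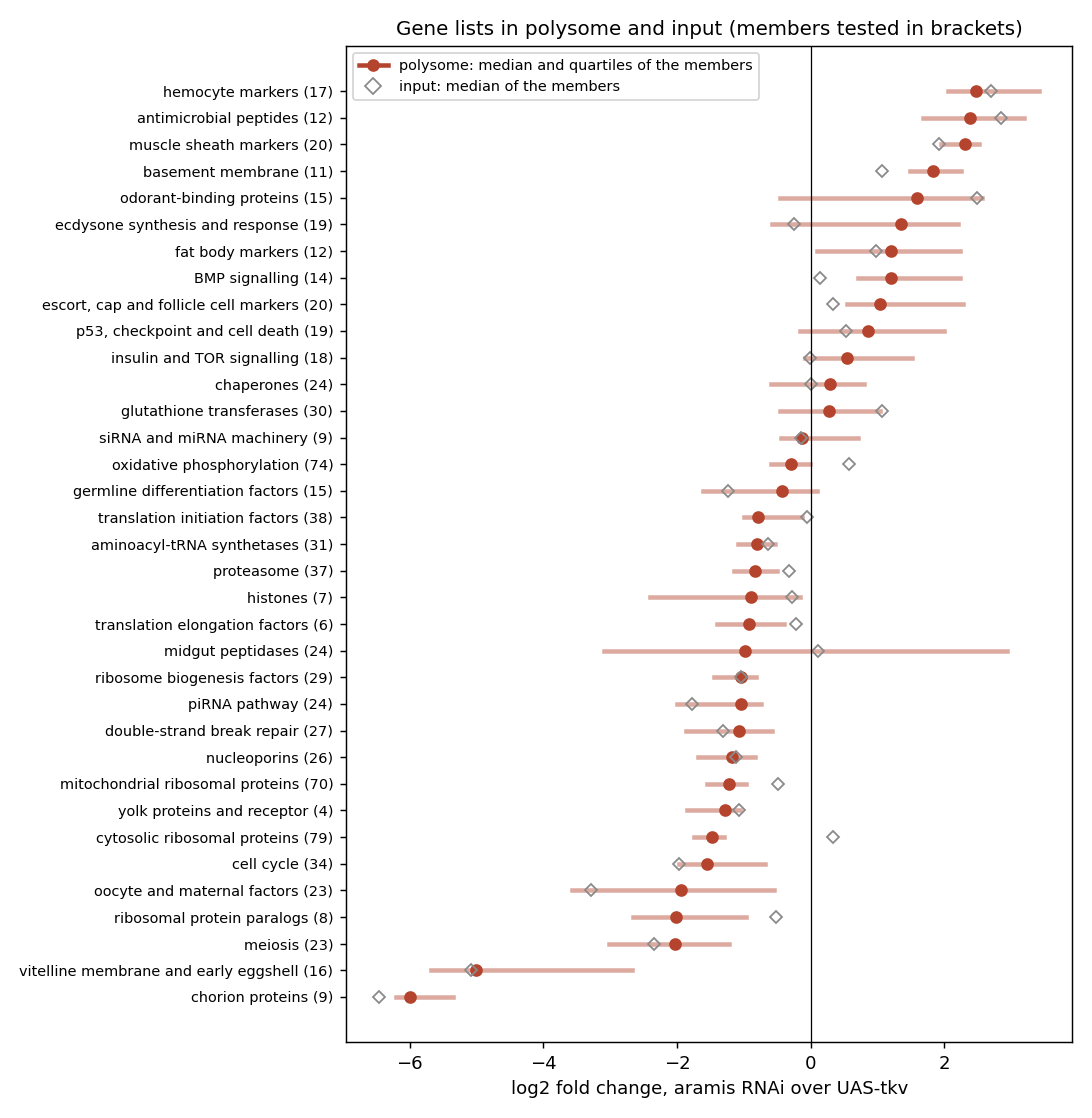
Median log2 fold change of aramis RNAi over UAS-tkv for 35 gene lists, ordered from highest at the top, with polysome medians and quartiles in red and input medians as grey diamonds. Cytosolic ribosomal proteins had medians of -1.48 in polysomes and 0.34 in input (-0.10 in input with library totals alone), while chorion proteins (-5.99 and -6.46) and hemocyte markers (2.48 and 2.70) lie together.

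Exon length moved with the polysome comparison. Genes called higher had a median exon length of 3201 bases and genes called lower 1584 bases, against 2000 bases over all genes tested. The median log2 fold change was -0.61 for genes of up to 1000 bases, -0.33 up to 2000, 0.11 up to 3000, 0.33 up to 4000, 0.64 up to 6000 and 1.04 above 6000 bases. In input the medians of the same bins stayed between -0.06 and 0.10, and in bam RNAi against UAS-tkv polysomes they ran from -0.15 to 0.51. Without the ribosomal protein genes the shortest bin had a median of -0.56, still above their own -1.48 at a median exon length of 916 bases. Mitochondrial ribosomal proteins (783 bases) and oxidative phosphorylation genes (848 bases) are as short, with medians of -1.21 and -0.29. Their input medians were -0.48 and 0.57 with TMM scaling (-0.92 and 0.13 with library totals alone). Their medians of the polysome minus input difference were -0.73 and -0.87 with TMM scaling. The part of length in the results on gene groups was not tested.

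**Figure D4:**
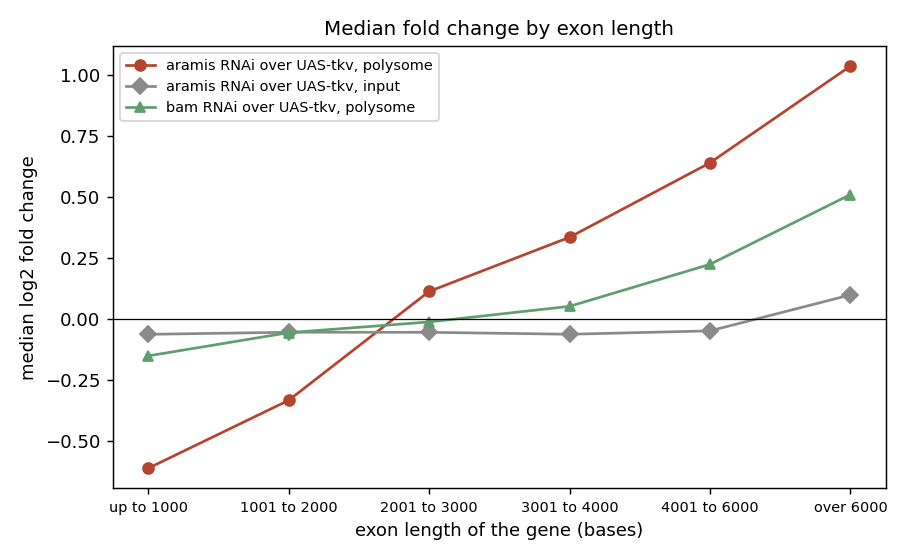
Median log2 fold change of the tested genes in 6 bins of exon length, for aramis RNAi over UAS-tkv in polysomes (red) and input (grey) and for bam RNAi over UAS-tkv in polysomes (green). The red line climbs from -0.61 to 1.04, the green line from -0.15 to 0.51, and the grey line stays between -0.06 and 0.10.

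Among the genes the study targeted, ais, on 3L at 17802490 to 17804715, had 9.94 and 13.5 CPM in aramis RNAi polysomes, against 20.3 and 38.5 CPM in UAS-tkv polysomes. Both aramis RNAi libraries were lower and ais was called (log2 fold change -1.33, adjusted p = 0.0305). The call was lost without aramis RNAi replicate 1, aramis RNAi replicate 2 or UAS-tkv replicate 2, with adjusted p-values of up to 0.187. In input ais was lower by -1.69 (adjusted p = 0.0163). tkv, the gene overexpressed in UAS-tkv, had 158 and 114.9 CPM in aramis RNAi polysomes, against 258 and 256 CPM in UAS-tkv polysomes (log2 fold change -0.91, adjusted p = 0.0474), and the call was lost with any single library left out (adjusted p up to 0.246). Dcr-2, whose transgene only the RNAi lines carry, had 180 and 142 CPM in aramis RNAi polysomes and 216 and 222 CPM in UAS-tkv polysomes, and was not called (adjusted p = 0.40). bam, which drives germ cells to differentiate, was near the detection limit, with 0.855 and 1.65 CPM in aramis RNAi polysomes and 7.42 and 4.47 CPM in UAS-tkv polysomes (adjusted p = 0.121).

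Meiosis genes were lower in aramis RNAi polysomes. Of 23 tested, 16 were called lower and none higher, with a median of -2.03, and 12 to 16 were called lower with a library left out. Their share was 0.0228% and 0.0219% of aramis RNAi polysomes, against 0.109% and 0.0918% of UAS-tkv polysomes. ord, which holds sister chromatids together in meiosis, had 13.6 and 19.1 CPM in aramis RNAi polysomes, against 75.3 and 96.6 CPM in UAS-tkv polysomes. cona, a central element protein of the synaptonemal complex, had 16.9 and 19.5 CPM in aramis RNAi polysomes, against 177 and 214 CPM in UAS-tkv polysomes. Both genes showed wide gaps next to close replicates, with log2 fold changes of -2.41 for ord (adjusted p = 0.00247) and -3.43 for cona (adjusted p = 0.000198). hdm, a meiotic crossover protein, and mtrm, an inhibitor of Polo kinase in the oocyte, fell by 4.18 and 4.08 on the log2 scale, to at most 1.4 and 2.8 CPM in aramis RNAi polysomes. In input the list had 16 called lower and a median of -2.34.

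The piRNA pathway, which silences transposons in the germline, had 11 of 24 genes called lower and none higher (median -1.04), with 8 to 11 lower when a library was left out. In input 19 of the 24 were called lower, with a median of -1.77. rhi, the HP1 paralog that marks piRNA clusters, had 4.89 and 2.64 CPM in aramis RNAi polysomes, against 41.9 and 28.8 CPM in UAS-tkv polysomes (log2 fold change -3.15, adjusted p = 0.000936). krimp and tej, both Tudor domain proteins of the nuage, fell by 2.25 and 2.81 at the same adjusted p of 0.000936. piwi, an Argonaute of germline and soma, had 180 and 154 CPM in aramis RNAi polysomes, against 253 and 339 CPM in UAS-tkv polysomes, and did not pass (adjusted p = 0.110).

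Germline differentiation factors had 4 of 15 called lower and 1 higher, with 2 lower without aramis RNAi replicate 1. In input 7 of the 15 were called lower and 0 higher, with a median of -1.23 against -0.43 in polysomes. All 15 had a polysome minus input difference above 0, as did 5087 of all 9745 genes, and none was called. The list's median exon length was 4723 bases. Genes over 4000 and up to 6000 bases had medians of 0.64 in polysomes and -0.05 in input, and the part of length was not tested. bgcn, the partner of bam, had 7.30 and 18.2 CPM in aramis RNAi polysomes, against 117 and 98.5 CPM in UAS-tkv polysomes (log2 fold change -3.15, adjusted p = 0.00106). Rbfox1, a cytoplasmic RNA-binding protein of differentiating cysts, was the one called higher, with 32.0 and 22.1 CPM in aramis RNAi polysomes, against 6.37 and 1.94 CPM in UAS-tkv polysomes. The polysome gap of Rbfox1 (log2 fold change 2.64, adjusted p = 0.00268) stood beside an input value of 0.32 (adjusted p = 0.650). CycA and bru1 were called lower, with log2 fold changes of -1.28 and -1.93, and CycA lost its call without aramis RNAi replicate 1 (adjusted p = 0.0899).

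Genes of late oogenesis were far lower in aramis RNAi polysomes. All 9 chorion genes, which encode the outer eggshell, were called lower, with a median of -5.99, and 4 were called lower without aramis RNAi replicate 1 and 7 or 8 without another library. They took 0.00511% and 0.0197% of aramis RNAi polysomes, against 0.669% and 0.913% of UAS-tkv polysomes. Cp15, in the amplified chorion cluster on 3L at 8728481 to 8729066, had 11 and 43.6 CPM in aramis RNAi polysomes, against 2501 and 1397 CPM in UAS-tkv polysomes (log2 fold change -6.21, adjusted p = 0.00312). Cp36, in the amplified cluster on X at 8479319 to 8480523, had 10.3 and 56.5 CPM in aramis RNAi polysomes, against 1571 and 2553 CPM in UAS-tkv polysomes. The 4 libraries of each gene fell into 2 clearly separate pairs. In bam RNAi polysomes the list median was -5.65 against UAS-tkv.

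Vitelline membrane and early eggshell genes were called lower in 13 of 16 and higher in none, with a median of -5.01. The median was -4.55 and -5.70 without aramis RNAi replicate 1 and 2, and -3.48 and -5.03 without UAS-tkv replicate 1 and 2, and the count was 4 and 11 without aramis RNAi replicate 1 and 2, and 8 and 13 without UAS-tkv replicate 1 and 2. The list's median was also below 0 in bam RNAi against UAS-tkv polysomes, at -1.70 with 2 called lower. Between aramis RNAi and bam RNAi polysomes it was -2.11, with 1 called lower. yellow-g2, an eggshell protein gene on 3L at 2276550 to 2278038, had 1.01 and 4.29 CPM in aramis RNAi polysomes, against 308 and 381 CPM in UAS-tkv polysomes (log2 fold change -7.35, adjusted p = 0.000526). Vm34Ca had 28.0 and 67.3 CPM in aramis RNAi polysomes, against 5965 and 903 CPM in UAS-tkv polysomes, and lost its call without aramis RNAi replicate 1 (adjusted p = 0.00903 with all libraries and 0.0899 without it). Of the 3 yolk proteins and the yolk receptor yl, only yl was called, at 9.40 and 32.4 CPM in aramis RNAi polysomes, against 278 and 136 CPM in UAS-tkv polysomes.

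Oocyte and maternal factors had 11 of 23 called lower and 1 higher, with a median of -1.94. In input 14 were called lower and 1 higher, with a median of -3.28. The list was also lower in bam RNAi than in UAS-tkv polysomes, with a median of -1.04, 18 of 23 below 0 and 1 called lower. Between aramis RNAi and bam RNAi polysomes the median was -0.32, with 6 called lower and 9 of 23 above 0. exu, which localizes mRNA in the oocyte, had 6.76 and 8.58 CPM in aramis RNAi polysomes, against 287 and 103 CPM in UAS-tkv polysomes (log2 fold change -4.69, adjusted p = 0.000602). plu and gnu, both subunits of the kinase that starts embryonic cycles, fell by 6.01 and 3.93. The maternal tubulin gammaTub37C fell by 3.34. The list's median was -1.34 without aramis RNAi replicate 1 and -3.54 without aramis RNAi replicate 2, and 6 members were called lower without aramis RNAi replicate 1. Mos, a kinase of oocyte maturation and the second lowest gene by rank, had 1 count over both aramis RNAi libraries and 557 over both UAS-tkv libraries, a ratio of 505 (95% counting interval 90.2 to 19971).

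Cell cycle genes were called lower in 22 of 34 and higher in 1, with a median of -1.56, and 17 to 24 were called lower with a library left out. PCNA, the sliding clamp of DNA replication, had 82.6 and 130 CPM in aramis RNAi polysomes, against 559 and 558 CPM in UAS-tkv polysomes (log2 fold change -2.40, adjusted p = 0.00117). Orc2 and Mcm7, which license origins, fell by 2.44 and 1.96, and input gave -2.59 and -1.97. Double-strand break repair genes had 11 of 27 called lower and none higher (median -1.08), with 6 lower without aramis RNAi replicate 1. Nucleoporins, which form the nuclear pore, had 18 of 26 called lower and none higher (median -1.17, input -1.12), with 9 lower without aramis RNAi replicate 1. Nup107 had 59.3 and 51.8 CPM in aramis RNAi polysomes, against 389 and 255 CPM in UAS-tkv polysomes. The checkpoint kinases lok and grp fell by 2.05 and 1.76 on the log2 scale and kept their calls with any library left out.

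Markers of several somatic cell types took a larger part of the aramis RNAi pool. Muscle sheath genes, from the contractile wrapping of the ovary, were called higher in 16 of 20 and lower in none, with a median of 2.31. They held 4.59% and 4.14% of aramis RNAi polysomes, against 0.787% and 1.32% of UAS-tkv polysomes, and in input 4.56% and 4.46% in aramis RNAi against 0.987% and 2.17% in UAS-tkv. With a library left out the count was 7 and 12 without aramis RNAi replicate 1 and 2, and 6 and 17 without UAS-tkv replicate 1 and 2. Mhc, muscle myosin, had 3881 and 3042 CPM in aramis RNAi polysomes, against 608 and 687 CPM in UAS-tkv polysomes (log2 fold change 2.42, adjusted p = 0.00401). Prm, paramyosin, had 1205 and 936 CPM in aramis RNAi polysomes, against 140 and 153 CPM in UAS-tkv polysomes (log2 fold change 2.87, adjusted p = 0.000993). TpnC41C was near 0, with at most 0.233 CPM in any of the 4 libraries.

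Hemocyte markers, from blood cells that settle on the ovary, were called higher in 14 of 17 and lower in none, with a median of 2.48. They took 0.388% and 0.306% of aramis RNAi polysomes, against 0.0427% and 0.0813% of UAS-tkv polysomes. The count was 8 and 11 without aramis RNAi replicate 1 and 2, and 8 and 15 without UAS-tkv replicate 1 and 2. NimC1, a phagocytosis receptor on 2L at 13973158 to 13976769, had 222 and 126 CPM in aramis RNAi polysomes, against 1.61 and 1.36 CPM in UAS-tkv polysomes (log2 fold change 6.83 ± 0.50 SE, adjusted p = 9.32e-05). Glt, a glutactin of basement membranes, had 565 and 451 CPM in aramis RNAi polysomes, against 23.5 and 54.0 CPM in UAS-tkv polysomes. PPO2, a prophenoloxidase of crystal cells, had 377 and 405 CPM in aramis RNAi polysomes, against 27.4 and 45.7 CPM in UAS-tkv polysomes. Basement membrane genes had 7 of 11 called higher and none lower (median 1.83), 4 without aramis RNAi replicate 1 or UAS-tkv replicate 1. In input 5 basement membrane genes were called higher and 0 lower (median 1.07). Their median exon length was 6011 bases. Of all genes over 6000 bases, 39.4% were called higher in polysomes, with a median of 1.04, and the part of length was not tested. The integrin mys and the peroxidase Pxn rose by 2.49 and 2.23 on the log2 scale in polysomes.

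Markers of escort, cap and follicle cells, the soma of the germarium, had 7 of 20 called higher and none lower, with 4 below 0. Their median was 1.04 in polysomes and 0.33 in input (-0.11 in input with library totals alone). Between bam RNAi and UAS-tkv polysomes the median was 0.91, with 18 of 20 above 0 and none called. Between aramis RNAi and bam RNAi polysomes it was 0.47, with 3 called higher and 1 lower. The list's median exon length was 3591 bases, and 23.5% of all genes over 3000 and up to 4000 bases were called higher. Fas3, an adhesion protein of follicle cells, had 818 and 547 CPM in aramis RNAi polysomes, against 111 and 157 CPM in UAS-tkv polysomes. fax, listed as an escort cell marker, had 778 and 509 CPM in aramis RNAi polysomes, against 68.3 and 108 CPM in UAS-tkv polysomes. LamC, a nuclear lamin of cap cells, had 182 and 150 CPM in aramis RNAi polysomes, against 32.6 and 37.1 CPM in UAS-tkv polysomes. All 3 were well apart, with log2 fold changes of 2.35, 2.87 and 2.25 and adjusted p-values of 0.00100, 0.000945 and 0.00139. Fat body markers had 2 of 12 called higher, or 16.7% beside 17.2% of all genes, with 0 without either aramis RNAi library, 1 without UAS-tkv replicate 1, and 4 higher and 1 lower without UAS-tkv replicate 2. Midgut peptidases had 1 of 24 called higher, with 0 and 1 without aramis RNAi replicate 1 and 2, 3 higher without UAS-tkv replicate 2 and 3 lower without UAS-tkv replicate 1. Midgut peptidases took 0.0146% and 0.050% of aramis RNAi polysomes and 0.00110% and 0.224% of UAS-tkv polysomes, and the groups overlapped. The muscle sheath, hemocyte and basement membrane lists had most members called higher, and the meiosis list most members called lower, in the same libraries. The eggshell genes, which somatic follicle cells express, were lower. The part of the mix of cells in the other results was not tested.

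Growth and stress signalling lists had more members called higher than lower. The shares higher and lower were 33.3% and 5.56% for insulin and TOR, and 50% and 7.14% for BMP. They were 42.1% and 21.1% for the p53, checkpoint and cell death list, and 17.2% and 13.6% for all genes. Median exon lengths of the lists were 4013, 4273 and 2166 bases. Of all genes over 4000 and up to 6000 bases, 30.0% were called higher and 4.63% lower. Input medians were -0.003 (2 higher, 0 lower), 0.14 (4 and 1) and 0.53 (4 and 2). The part of length was not tested. The insulin and TOR list had 6 of 18 called higher and 1 lower (median 0.54), with 3 higher without aramis RNAi replicate 1. Sesn, a stress-induced inhibitor of TOR, had 328 and 256 CPM in aramis RNAi polysomes, against 38.6 and 34.2 CPM in UAS-tkv polysomes (log2 fold change 3.00, adjusted p = 0.000936). Thor, the eIF4E-binding protein that TOR inhibits, had 1355 and 1435 CPM in aramis RNAi polysomes, against 167 and 361 CPM in UAS-tkv polysomes (log2 fold change 2.40, adjusted p = 0.00313). larp had 168 and 113 CPM in aramis RNAi polysomes, against 43.1 and 42.7 CPM in UAS-tkv polysomes. The libraries of larp did not overlap (log2 fold change 1.71, adjusted p = 0.00362, and 0.0526 without aramis RNAi replicate 1), and its input value was 0.16 (adjusted p = 0.764).

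The p53, checkpoint and cell death list was mixed, with 8 of 19 called higher and 4 lower, or 4 and 2 without aramis RNAi replicate 1, 5 and 2 without aramis RNAi replicate 2, 5 and 3 without UAS-tkv replicate 1 and 4 and 3 without UAS-tkv replicate 2. Xrp1, a transcription factor induced in ribosomal protein mutants, had 322 and 213 CPM in aramis RNAi polysomes, against 52.8 and 72.1 CPM in UAS-tkv polysomes (log2 fold change 2.1, adjusted p = 0.00128). egr, the fly TNF, had 145 and 110 CPM in aramis RNAi polysomes, against 24.8 and 30.1 CPM in UAS-tkv polysomes. scyl, which restrains TOR, rose by 2.76 on the log2 scale. BMP signalling had 7 of 14 called higher and 1, tkv, lower, and 3 were called higher without aramis RNAi replicate 1. The ligand dpp had 65.6 and 32.4 CPM in aramis RNAi polysomes, against 2.02 and 5.63 CPM in UAS-tkv polysomes (log2 fold change 3.75, adjusted p = 0.00500). Dad, a pathway target that inhibits it, had 95.9 and 62.1 CPM in aramis RNAi polysomes, against 13.3 and 10.7 CPM in UAS-tkv polysomes (log2 fold change 2.72, adjusted p = 0.00124). The groups of dpp and Dad were well separated.

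**Figure D5:**
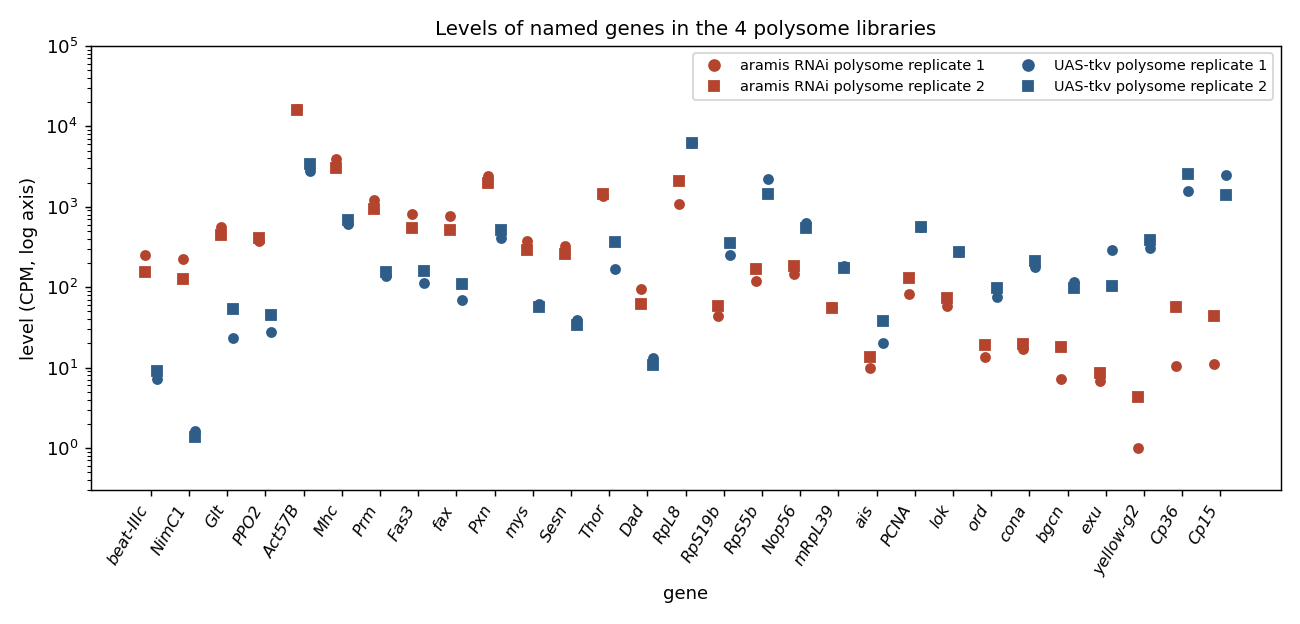
Level of 29 named genes (CPM, log axis) in the 4 polysome libraries, with aramis RNAi in red left of UAS-tkv in blue and circles and squares for replicates 1 and 2. Muscle, hemocyte and follicle cell genes at the left are higher in aramis RNAi (Mhc 3881 and 3042 CPM against 608 and 687 CPM), and ribosomal, germline and eggshell genes at the right are lower (cona 16.9 and 19.5 CPM against 177 and 214 CPM).

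At the top of the ranking stood mRNAs nearly missing from UAS-tkv polysomes. scaf, a serine protease-like protein, had 601 and 105 counts in aramis RNAi polysomes and 0 in both UAS-tkv polysomes, at least 259.7-fold higher against a floor of 3 counts over the group. MsR1, a receptor of the neuropeptide myosuppressin on 3L at 2322693 to 2345799, had 1041 counts over both aramis RNAi polysomes and 1 over both UAS-tkv polysomes, a ratio of 1149 (95% counting interval 206 to 45419). beat-IIIc, a membrane protein of the Beaten path family, had 253 and 155 CPM in aramis RNAi polysomes, against 7.26 and 9.13 CPM in UAS-tkv polysomes. CG2065, CG8563, CG42711, CG31323, CG32694 and CG17839 filled the other places beside NimC1, at 26.7 to 169 CPM in aramis RNAi polysomes and 0 to 7.97 CPM in UAS-tkv polysomes. CG31323 lost its call without aramis RNAi replicate 1 (adjusted p = 0.0613). Over all genes tested, 384 had no count in either UAS-tkv polysome library and 248 none in either aramis RNAi polysome library. Of the called genes, 99 of those higher were at 0 in both UAS-tkv polysomes and 33 of those lower were at 0 in both aramis RNAi polysomes.

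The 10 lowest genes by the same rank were CG42704, Mos, Vm26Ac, yellow-g2, CG14187, Cp16, Obp19c, Vm32E, Cp19 and Cp15. Of these, Vm26Ac, Vm32E, Cp16, Cp19, Cp15 and yellow-g2 are eggshell genes. Vm26Ac lost its call without aramis RNAi replicate 1 or UAS-tkv replicate 1 (adjusted p up to 0.142), Vm32E and Cp19 without aramis RNAi replicate 1 (0.0819 and 0.0821), and Cp16 without either aramis RNAi library or UAS-tkv replicate 2 (up to 0.124). Obp19c, an odorant-binding protein gene on X at 20417921 to 20418964, had 0.466 and 1.65 CPM in aramis RNAi polysomes, against 171 and 46.4 CPM in UAS-tkv polysomes, and kept its call with any library left out (log2 fold change -7.03, adjusted p = 0.000936). CG42704 rested on UAS-tkv replicate 2, with 24 counts in UAS-tkv replicate 1 and 1571 in replicate 2 beside 1 in each aramis RNAi library, and its adjusted p of 0.0162 moved to as much as 0.185 without UAS-tkv replicate 2 or either aramis RNAi library. CG14187 likewise rested on UAS-tkv replicate 1, with 1064 counts there and 22 in replicate 2, beside 2 in each aramis RNAi library (adjusted p = 0.0345, and up to 0.254 without UAS-tkv replicate 1 or either aramis RNAi library).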

How the data were processed

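Libraries came from poly(A) RNA with a strand-marking kit. The submitters' processing notes name HISAT2 2.1.0, featureCounts 1.4.6 and dm6, which the authors used for alignment and for reads per gene. The deposited values are whole-number counts for 17023 gene identifiers, not normalized. How strand and reads matching several genes were treated was not given in the sources used here, which leaves values of near-identical copies and of antisense pairs uncertain. An Ensembl gene set (BDGP6 assembly, the dm6 sequence) supplied symbols, positions and lengths for 16647 identifiers. The other 376 held 4.13% to 6.46% of a library's counts and stayed in the fits under their identifiers.

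Counts were fitted in R 4.3.3 with edgeR 4.0.16 (filterByExpr, TMM scaling, quasi-likelihood test) as 6 group means over all 12 libraries, which left 9745 genes, removed 7278 and had 6 residual degrees of freedom. A gene was called where its p, adjusted by Benjamini and Hochberg's method over all genes tested, was under 0.05. SE values are of the log2 fold change, with a median of 0.44 in the polysome comparison. CPM used TMM-scaled library sizes, and TPM divided counts by exon length. Analysis code was tested on simulated data. Alternatives included DESeq2 1.42.0, other scalings, filters and sets of libraries.

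The members and the 35 gene lists were chosen with earlier results of these data known. Named genes were those of the study (ais, bam, tkv, Dcr-2, RpS19b, ord), the 10 most abundant per pool in TPM, the 10 called genes at each end of the fold change with a mean of at least 10 CPM and no overlap, and, per list, up to 3 called members per direction by p, the 3 highest in CPM and both extremes. Intervals and the floor of 3 counts cover counting error only. Some of the most abundant genes are not reported here by name.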

Additional observations from a re-analysis of the deposited data

Results flagged for a closer look

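The polysome difference of scaf exceeded its input difference by 8.37 on the fitted log2 scale in aramis RNAi against UAS-tkv, by the edgeR interaction test (adjusted p = 0.0255). This was the one gene where the 2 fractions differed by that test. scaf had 46.7 and 34.7 CPM in aramis RNAi polysomes and 0 in both UAS-tkv polysomes, beside 44.0 and 42.5 CPM in aramis RNAi input and 4.16 and 5.0 CPM in UAS-tkv input. The fitted value depends on the prior count, since 1 group is at 0. The call was not made with any single library left out, with a replicate block or with library totals alone, and its cause was not tested.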

How the results depend on the processing

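The counts of 1674 higher and 1324 lower genes fell to 863 and 595 in a fit of the 6 polysome libraries alone, and to 755 and 389 when over 4-fold was also required. With 1 library left out they ran from 645 to 1494 higher and from 423 to 1073 lower, and were lowest without aramis RNAi replicate 1. The library left alone in its group was then assumed to vary like the other groups. DESeq2 gave 2028 and 1633, no filter 1994 and 1445, and library totals without a scaling factor gave 1125 and 1322, or 46.0% higher among the calls against 55.8%. Alternatives were run on 161 of the 250 named genes, those called and the study's own genes in the naming rule. None of them changed direction where a value could be had (9 had none in at least 1 setting). As 159 named genes were called in these same libraries, a change of direction was unlikely, and the other uncalled named genes were not run. List medians that changed sign were those of midgut peptidases (-0.98, against 7.50 without UAS-tkv replicate 2 and 0.86 with a replicate block), yolk genes (-1.29, against 0.05 without UAS-tkv replicate 1), germline differentiation factors (-0.43, against 0.10 without UAS-tkv replicate 1), glutathione transferases (0.27, against -0.01 without UAS-tkv replicate 1 and -0.0042 without aramis RNAi replicate 2) and siRNA and miRNA machinery (-0.13, against 0.12 and 0.10 without UAS-tkv replicate 1 and 2).

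Ribosomal protein mRNAs called lower were 5, and became 48 with the 4 polysome libraries alone, 3 with the 6 polysome libraries, 3 with RLE scaling, 40 with library totals, 50 with no filter, 53 with DESeq2, 2 to 4 with 1 library left out and 71 without the bam RNAi polysomes, an alternative chosen after seeing the data. Their median log2 fold change stayed between -2.01 and -1.18 in each of these settings. Their mean share of the pool was 7.04% in aramis RNAi and 21.3% in UAS-tkv, and became 10.7% and 29.5% as a share of TPM, and 19.8% in UAS-tkv without the 10 most abundant genes. The polysome minus input difference was called for 1 gene, for 19 with DESeq2, for 0 with a replicate block or with the lysate as a block, for 0 with any library left out, and for 0 with library totals alone. The lysate block and the other scalings of input were chosen after seeing the data. The causes of these shifts were not tested.

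The replicate number as a block gave 1725 higher and 1279 lower genes. Same-numbered aramis RNAi and UAS-tkv polysome libraries deviated together with a correlation of 0.144, and nothing in the labels ties the numbers, so they were not taken as pairs. The search for start-site letters of ribosomal protein genes was not run, as no promoter sequence was used here. Genes at 0 in both libraries of a group were also set to the bound of the floor. This moved the glutathione transferase median from 0.27 to 0.13, and no other list median quoted in the report by more than 0.04 on the log2 scale.

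With 2 libraries per group, and 3131667 counts in the smaller aramis RNAi polysome library, changes of moderate size were often not called, and the large spread of eggshell mRNAs between UAS-tkv replicates limits the size of their change.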

Other observations

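Further gene groups of the polysome pool are given here as values. Over all genes tested 17.2% were called higher and 13.6% lower. The shares were 40% and 13.3% for odorant-binding proteins, 42.1% and 10.5% for ecdysone genes, and 22.2% and 0% for siRNA and miRNA machinery. Median exon lengths of these lists were 734, 4984 and 4290 bases. Of all genes of up to 1000 bases, 5.47% were called higher and 17.3% lower. For genes over 4000 and up to 6000 bases the shares were 30.0% and 4.63%, and the part of length was not tested. Antimicrobial peptide genes had a median log2 fold change of 2.39 in aramis RNAi against UAS-tkv polysomes, with 2 of 12 called higher (16.7%, beside 17.2% of all genes) and none lower. DESeq2 called 7 higher, 1 was called higher with either aramis RNAi library left out, and 1 was called lower without aramis RNAi replicate 2. Def, an insect defensin, had 422 and 823 CPM in aramis RNAi polysomes, against 77.7 and 70.1 CPM in UAS-tkv polysomes (adjusted p = 0.0108, up to 0.0584 without aramis RNAi replicate 2 or UAS-tkv replicate 1). Odorant-binding protein genes had 6 of 15 called higher and 2 lower, or 2 higher and 1 lower without UAS-tkv replicate 1. Obp57a had 110 and 118 CPM in aramis RNAi polysomes, against 15.5 and 35.2 CPM in UAS-tkv polysomes, the opposite direction to Obp19c (log2 fold changes 2.18 and -7.03). Both kept their calls with any library left out.

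Ecdysone synthesis and response genes, which make and read the moulting hormone, had 8 of 19 called higher and 2 lower in polysomes (median 1.35), and 2 higher and none lower in input (median -0.25). ImpE3 had 15.8 and 23.1 CPM in aramis RNAi polysomes, against 4.27 and 3.11 CPM in UAS-tkv polysomes (adjusted p = 0.00691). The number called higher fell to 2 without aramis RNAi replicate 1. Glutathione transferases had 6 of 30 called higher (20%, near the 17.2% of all genes) and 1 lower, with none higher without UAS-tkv replicate 1 and 1 higher without either aramis RNAi library. GstO1 was the one lower, at 11.7 and 13.2 CPM in aramis RNAi polysomes, against 50 and 61.4 CPM in UAS-tkv polysomes.

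Chaperones had 2 of 24 called higher and 3 lower, with 1 lower without aramis RNAi replicate 1 and none lower without aramis RNAi replicate 2. The chaperone shares, 8.33% higher and 12.5% lower, lay below the 17.2% and 13.6% of all genes. stv, a co-chaperone of muscle protein turnover, had 245 and 149 CPM in aramis RNAi polysomes, against 37.3 and 42.7 CPM in UAS-tkv polysomes (adjusted p = 0.00129). BigH1, the linker histone of germ cells and early embryos, had 2.56 and 8.58 CPM in aramis RNAi polysomes, against 67.7 and 73.6 CPM in UAS-tkv polysomes (log2 fold change -3.80, adjusted p = 0.000870). Small RNA machinery of the siRNA and miRNA pathways had 2 of 9 called higher and none lower, with a median of -0.13, and no call held without aramis RNAi replicate 1.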
